A study of Mus musculus with 2 samples.

Results

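The genes described here make, carry, sense and break down sphingosine-1-phosphate (S1P) or related phospholipids: the receptor gene S1pr1, the exporter gene Spns2, the kinase gene Sphk1, the phosphatase genes Sgpp1 and Sgpp2, the lyase gene Sgpl1, and the lipid phosphate phosphatase genes Plpp1 and Plpp3. They were chosen by symbol as a pathway, and all 8 stood among the 54838 genes listed for both libraries. Each is followed across the vessel types of the adrenal gland and between the 2 libraries of the study.

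S1P is a lipid that endothelial cells both release and sense. Sphingosine kinases make it from sphingosine inside the cell, Spns2 carries it out across the plasma membrane of endothelial cells, and S1pr1 on the endothelial surface receives it and is known for its part in junction stability and in restraining vessel sprouting. Inside the cell, the phosphatases encoded by Sgpp1 and Sgpp2 in the endoplasmic reticulum return S1P to sphingosine and the lyase encoded by Sgpl1 cleaves it for good, while Plpp1 and Plpp3 at the cell surface remove phosphate from extracellular S1P and lysophosphatidic acid.

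The study asked how VEGF-A from macrophages bears on the variety of endothelial cells in the adrenal gland. Female mice of 12 weeks gave 1 library labelled VEGF/LysM and 1 library labelled WT, for wild type. Glands were minced and digested with a protease active in the cold, and viable cells with CD31 and without CD45 on their surface were sorted for droplet-based single-cell RNA sequencing, which counts each captured molecule once as a UMI. LysM names the gene Lyz2, which is active in macrophages and other myeloid cells. The alleles joined in VEGF/LysM mice, their strain, and how many mice contributed to either library are not stated in the sources used here, so the library is called by its label.

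With 1 library per group there is no replicate check, no test can be made, and every ratio compares 2 libraries, not 2 genotypes. The intervals given are exact 95% intervals for counting error only. Levels are given as CPM, the UMIs of a gene in the summed cells of a class scaled to a common total. They are not scaled to transcript length, so a gene is compared with itself across cells and libraries, not with another gene. Fewer transcripts per cell and a lower share of expressing cells cannot be told apart from a summed level alone.

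The VEGF/LysM library kept 3677 cells with a median of 2316 UMIs, and the WT library kept 5819 cells with a median of 1164 UMIs. Clusters with endothelial markers held 3531 VEGF/LysM and 5682 WT cells. In these, Kdr, which encodes VEGF receptor-2, was detected in 90.7% of VEGF/LysM and 87.1% of WT cells, and Pecam1, which encodes CD31, in 87.2% of VEGF/LysM and 75.2% of WT cells. The libraries shared 10 barcode sequences, of which 8 were kept. Beside the endothelium, 82 VEGF/LysM and 86 WT myeloid-like cells, 45 VEGF/LysM and 40 WT adrenocortical-like cells and 19 VEGF/LysM and 11 WT lymphoid-like cells had passed the sort. Clusters were made without the 8 genes and without the other genes of their pathway, so none of them helped to draw the vessel classes.

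Each of 4 vessel classes held more than 100 cells in both libraries. Arterial-like cells (261 VEGF/LysM and 263 WT) were led by Npnt, Tspan8 and Lgr5, and 14 of 17 listed arterial genes, among them Gja4, Bmx and Sema3g, were at least 2-fold higher in them than in the other endothelial cells of both libraries. Capillary-like cells (804 VEGF/LysM and 850 WT) carried Cd36, Car4 and Cxcl12. They joined cluster 2, with 625 of the VEGF/LysM and 404 of the WT cells, and cluster 3, with 179 VEGF/LysM and 446 WT cells. Tip-like cells (249 VEGF/LysM and 367 WT) carried Apln, Kcne3 and Kcnj8, but not all markers of that name. Only 5 of 9 listed tip genes were at least 2-fold higher in them in both libraries. Angpt2 fell short in both, Cxcr4 in VEGF/LysM and Adm in WT, and Pgf had no UMI in the VEGF/LysM library. Plvap-high cells (2121 VEGF/LysM and 4102 WT) were named for the gene of the diaphragm protein of fenestrated capillaries. Of 12 listed fenestrated genes, 8 were at least 2-fold higher in them in both libraries, while Esm1 and Cyp26b1 were so in neither. The Plvap-high cells filled 6 clusters. Among these, clusters 0, 1 and 9 were led by Lyve1, by Ccl2 and by Oit3, and cluster 8 by Npr3 and Esm1. Clusters 8, 5 and 1 held most of the VEGF/LysM and clusters 8, 7 and 9 most of the WT cells, so these cells are compared between libraries cluster by cluster. Both libraries were clustered together without integration, and whether library or depth helped to draw the clusters was not tested. At a finer clustering, 1 VEGF/LysM and 14 WT arterial-like cells fell in a cluster named by the sinusoid markers Stab1, Stab2, Mrc1 and Clec4g. They are called Stab2-carrying cells below, after the scavenger receptor gene, though no cell was picked by its own Stab2 UMIs. Values without them are given where they bear on a result.

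The vessel classes differed in their levels of the S1P genes. Capillary-like and arterial-like cells carried more of the exporter Spns2, and capillary-like cells more of the receptor S1pr1. Nearly all Sgpp2 lay in arterial-like cells. Plvap-high cells carried more Sgpp1, Plpp1 and Plpp3 and no detected Sgpp2. In both libraries, 2 of 7 measured genes of the set were at least 2-fold higher in arterial-like cells than in the other endothelial cells and 2 were at least 2-fold lower, beside 2.99% and 5.76% of 10425 measured genes. The counts were 2 higher and 4 lower in capillary-like cells (4.20% and 7.88% of all measured genes), 0 higher and 2 lower in tip-like cells (1.06% and 3.85%), and 3 higher and 2 lower in Plvap-high cells (3.00% and 4.23%). Of these 17 contrasts of a gene with a class, 2 are of Sgpp2 in classes where it had no UMI. In WT tip-like cells that absence bounds the difference at only 1.45-fold or more, so a 2-fold difference is not shown there. Sgpp2 counted as measured through its arterial-like UMIs, so it had to be lower elsewhere, and in WT capillary-like cells its value of 0.47-fold rests on 4 UMIs (0.12 to 1.27). In WT Plvap-high cells, Spns2 at 0.50-fold (0.38 to 0.65) and Sgpp1 at 2.06-fold (1.78 to 2.40) have intervals that span the 2-fold limit. Past 2-fold in the VEGF/LysM library alone were Sgpp1 in arterial-like cells (lower), S1pr1 in Plvap-high cells (lower) and Sgpl1 in tip-like cells (higher). For S1pr1 the values were 0.48-fold (0.46 to 0.51) in VEGF/LysM and 0.52-fold (0.49 to 0.56) in WT. For Sgpl1 they were 2.08-fold (1.26 to 3.30) in VEGF/LysM and 1.37-fold (0.71 to 2.44) in WT. In both genes the intervals of the libraries overlapped. For Sgpp1 in WT arterial-like cells the value was 0.54-fold with the Stab2-carrying cells. Without them it was 0.23-fold (0.12 to 0.39), also past 2-fold. Because the genes were picked with earlier results of these cells known, the shares are a description and not a finding about the set.

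**Figure D1:**
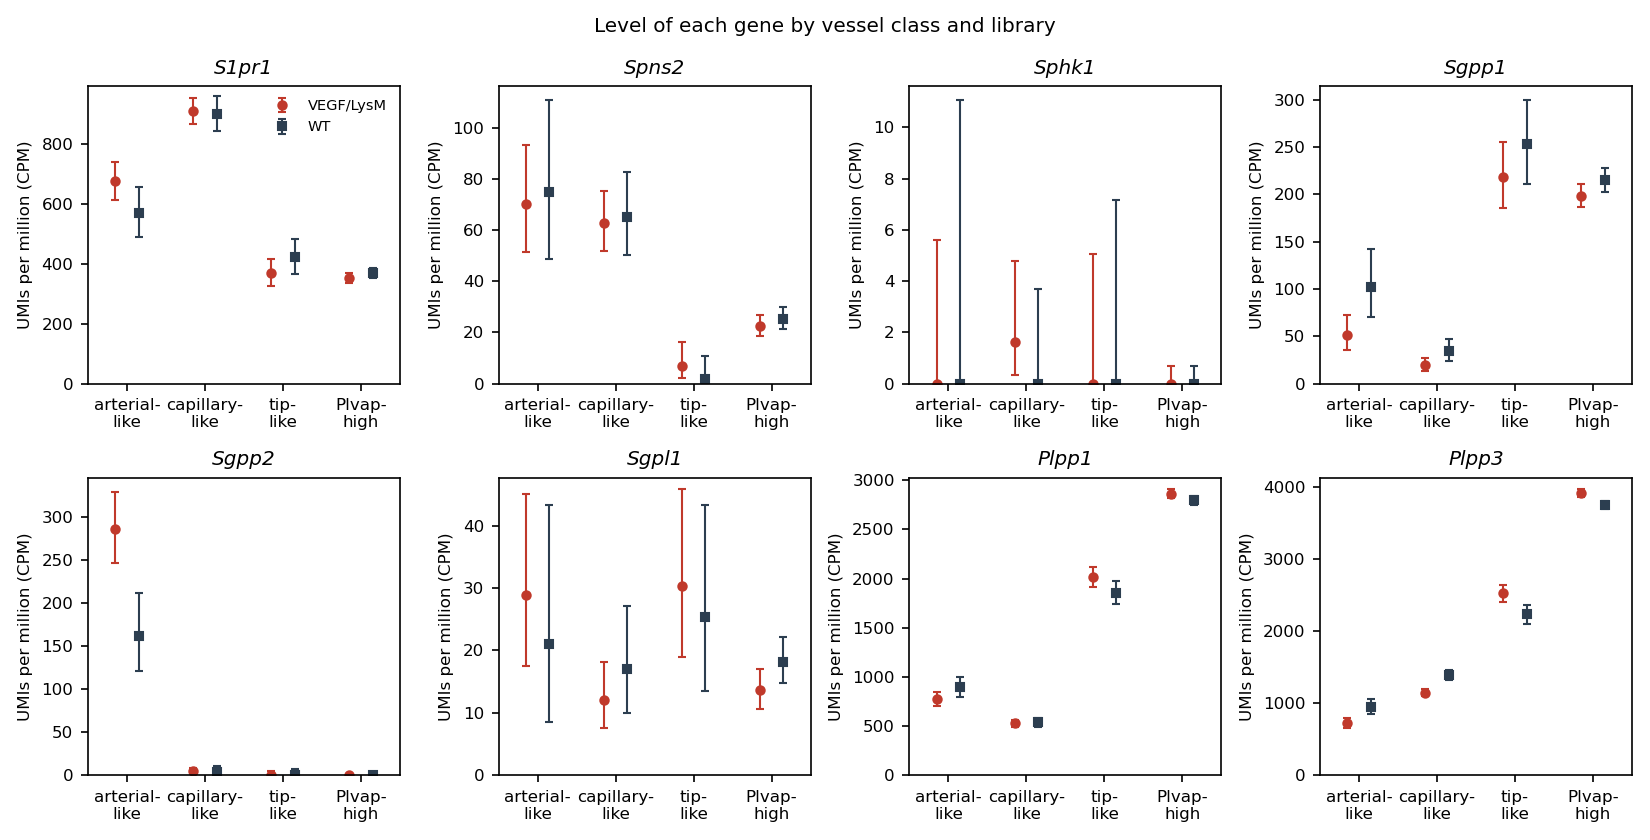
Levels of the 8 genes in CPM in the 4 vessel classes, with VEGF/LysM left of WT in each class and bars for exact 95% counting intervals. Sgpp2 stands at 286 CPM in VEGF/LysM and 162 CPM in WT arterial-like cells and has no UMI in tip-like or Plvap-high cells, while Plpp1 and Plpp3 are highest in Plvap-high cells.

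The promoters of the 2 endoplasmic reticulum phosphatase genes are shown because these genes lay in different vessel types. RefSeq gives 250 bases before and 50 after the start (GRCm38.p6), for Sgpp2 at chr1:78310096-78310395 on the plus strand and for Sgpp1 at chr12:75735680-75735979 on the minus strand. Both are written 5′ to 3′ on the strand of the gene, and capitals mark matches to the motifs searched on both strands.
Sgpp2: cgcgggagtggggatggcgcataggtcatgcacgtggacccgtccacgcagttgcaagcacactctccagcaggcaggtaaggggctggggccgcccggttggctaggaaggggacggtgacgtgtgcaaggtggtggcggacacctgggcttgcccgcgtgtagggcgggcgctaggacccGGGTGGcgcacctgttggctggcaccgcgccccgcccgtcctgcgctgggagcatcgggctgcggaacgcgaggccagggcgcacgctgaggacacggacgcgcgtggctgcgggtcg
Sgpp1: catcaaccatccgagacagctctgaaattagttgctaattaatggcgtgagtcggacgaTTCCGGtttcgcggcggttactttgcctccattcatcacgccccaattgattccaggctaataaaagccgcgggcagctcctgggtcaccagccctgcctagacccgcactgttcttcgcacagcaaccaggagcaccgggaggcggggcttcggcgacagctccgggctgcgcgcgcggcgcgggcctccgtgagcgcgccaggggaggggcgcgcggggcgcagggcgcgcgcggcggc
The motifs searched were the KLF-type CCACCC, the SOX-type ACAAT and the ETS-type CCGGAA, none of whose matches overlapped another here. The Sgpp2 window held 1 match, the reverse complement of the KLF-type motif, and the Sgpp1 window held 1 match, the reverse complement of the ETS-type motif. Of 32851 promoter windows of the same length, 31.5% held the KLF-type, 31.0% the SOX-type and 14.9% the ETS-type letters. G and C made up 72% of the Sgpp2 window and 66% of the Sgpp1 window. A match here is a run of letters and not a known binding site. Windows were found for 6 of the 8 genes, and S1pr1 and Plpp1 had none.

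S1pr1 (ENSMUSG00000045092, chromosome 3, 115710433 to 115715072, minus strand, GRCm38) encodes the main S1P receptor of endothelium and was detected in every vessel class. In capillary-like cells it stood at 908 CPM (865 to 953) in the VEGF/LysM library and 899 CPM (841 to 960) in the WT library. Arterial-like cells held 674 CPM (613 to 740) in VEGF/LysM and 567 CPM (489 to 654) in WT. Tip-like cells held 367 CPM (324 to 414) in VEGF/LysM and 420 CPM (366 to 480) in WT, and Plvap-high cells 352 CPM (336 to 368) in VEGF/LysM and 368 CPM (352 to 384) in WT. The order was thus capillary-like, arterial-like, then tip-like and Plvap-high, whose intervals overlapped within each library. Against the other endothelial cells of its library, S1pr1 was 2.33-fold (VEGF/LysM) and 2.30-fold (WT) in capillary-like cells and 0.48-fold in VEGF/LysM and 0.52-fold in WT Plvap-high cells.

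The share of cells with an S1pr1 UMI followed the same order but moved with depth. It was 72.1% in VEGF/LysM and 57.1% in WT capillary-like cells (median 1727 UMIs in VEGF/LysM and 930 UMIs in WT), and 53.0% in VEGF/LysM and 35.6% in WT Plvap-high cells (median 2395 UMIs in VEGF/LysM and 1195.5 UMIs in WT). With every cell thinned to 1000 UMIs, the shares in capillary-like cells were 56.2% in VEGF/LysM and 54.6% in WT, and in Plvap-high cells 28.2% in VEGF/LysM and 29.1% in WT. Adrenocortical-like cells had median depths of 4259 UMIs in VEGF/LysM and 1654.5 UMIs in WT. They showed S1pr1 in 24.4% of VEGF/LysM and 25.0% of WT cells, or 10.8% in VEGF/LysM and 18.2% in WT after thinning. How much RNA from outside the cell adds to these shares was not tested.

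Between the libraries S1pr1 was nearly level in capillary-like cells and within the limit for a call, given below, in each class. Its log2 ratio of VEGF/LysM over WT was 0.01 (-0.10 to 0.13) in capillary-like cells, 0.25 (0.00 to 0.50) in arterial-like cells and -0.20 (-0.46 to 0.07) in tip-like cells. Over the clusters of Plvap-high cells it ran between -0.27 in cluster 7 and 0.10 in cluster 9. None of these was past a log2 ratio of 0.32 in either direction, the limit used here to call a difference between libraries. Under the processing alternatives the arterial-like ratio ran between 0.17 and 0.44, past the limit at its highest. Among all 12 clusters with enough UMIs, 6 had a higher and 6 a lower level in the VEGF/LysM library, and 1, the haemoglobin-carrying cluster 4, was past that limit on the lower side.

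Spns2 (ENSMUSG00000040447, chromosome 11, 72451638 to 72489904, minus strand), the exporter that supplies endothelial S1P, was most abundant in arterial-like and capillary-like cells. Arterial-like cells held 70.0 CPM (51.2 to 93.3) from 46 UMIs in VEGF/LysM and 75.0 CPM (48.5 to 111) from 25 UMIs in WT. Capillary-like cells held 62.8 CPM (51.9 to 75.4) in VEGF/LysM and 64.9 CPM (50.1 to 82.7) in WT, and Plvap-high cells 22.6 CPM (18.7 to 26.9) in VEGF/LysM and 25.2 CPM (21.1 to 29.8) in WT. The intervals of arterial-like and capillary-like cells overlapped, and those of Plvap-high cells lay below both. Tip-like cells were lowest, with 5 UMIs in VEGF/LysM and 1 UMI in WT. Spns2 was 2.33-fold (VEGF/LysM) and 2.50-fold (WT) over the other endothelial cells in arterial-like cells and 2.48-fold in VEGF/LysM and 2.41-fold in WT capillary-like cells. In tip-like cells it was 0.19-fold (VEGF/LysM) and 0.06-fold (WT).

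Between the libraries the Spns2 intervals spanned no difference in either of the classes rich in it, with log2 ratios of -0.10 (-0.83 to 0.66) in arterial-like and -0.05 (-0.50 to 0.42) in capillary-like cells. Within the capillary-like class the log2 ratios were 0.23 (-0.37 to 0.87) in cluster 2 and -0.41 (-1.30 to 0.44) in cluster 3, the second past the limit with an interval that spans no difference. Of the Plvap-high clusters only cluster 8 had enough UMIs, 30.4 CPM in VEGF/LysM and 41.7 CPM in WT, a log2 ratio of -0.46 (-1.05 to 0.14) that is past the limit but whose interval spans no difference. Mybbp1a lies on the other strand across part of Spns2, and which strand was counted is not stated for these files.

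Sphk1 (ENSMUSG00000061878, chromosome 11, 116530925 to 116536674, plus strand), one of the kinases that make S1P, was at the edge of detection. VEGF/LysM endothelial cells held 3 UMIs, in 3 capillary-like cells of cluster 2, or 0.337 CPM, and WT endothelial cells held 0 UMIs. The absence in 5682 WT cells allows a level of up to 0.408 CPM and a share of up to 0.0528% of cells with a UMI. Its paralogue Sphk2, a kinase of the nucleus and mitochondria as well as the cytosol, was found at 13.5 CPM in VEGF/LysM and 16.9 CPM in WT endothelial cells. Its log2 ratio was -0.32 (-0.70 to 0.05). Rpl18 and Dbp overlap Sphk2 on the other strand.

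Sgpp2 (ENSMUSG00000032908, chromosome 1, 78310345 to 78420289, plus strand), 1 of the 2 S1P phosphatases of the endoplasmic reticulum, marked the arterial-like cells. These cells held 188 UMIs in the VEGF/LysM library, or 286 CPM (247 to 330), and 54 UMIs in the WT library, or 162 CPM (122 to 211). They held 95.9% of all endothelial Sgpp2 UMIs in VEGF/LysM and 93.1% in WT. The level was 295-fold (147 to 693) that of the other endothelial cells in VEGF/LysM and 284-fold (105 to 1082) in WT. The few remaining endothelial UMIs, 8 VEGF/LysM and 4 WT, were all in capillary-like cluster 3. At a finer clustering they lay in a group of 64 VEGF/LysM and 74 WT cells led by Stmn2, Fbln2 and Hey1, genes of the arterial list, at 52.7 CPM in VEGF/LysM and 39.0 CPM in WT.

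Sgpp2 was not detected in Plvap-high or tip-like cells. None of 2121 VEGF/LysM and 4102 WT Plvap-high cells had a UMI, which allows shares of up to 0.141% of VEGF/LysM and 0.0731% of WT cells and levels of up to 0.550 CPM in VEGF/LysM and 0.560 CPM in WT. Plvap-high cells were therefore at least 103-fold (VEGF/LysM) and at least 51.8-fold (WT) lower than the other endothelial cells. The floor was 3 counts over the class. Of the Sgpp2 UMIs in those other cells, 188 of 196 in VEGF/LysM and 54 of 58 in WT were arterial-like. These folds thus restate the arterial-like level and are not a separate result. Tip-like cells also had 0 UMIs, with limits of 4.12 CPM in VEGF/LysM and 5.84 CPM in WT, as did myeloid-like and lymphoid-like cells. Adrenocortical-like cells held 2 UMIs in VEGF/LysM and 3 UMIs in WT. Farsb, which overlaps Sgpp2 on the other strand, had 60.9 CPM in VEGF/LysM and 42.0 CPM in WT arterial-like cells and 32.6 CPM in VEGF/LysM and 25.0 CPM in WT Plvap-high cells, where Sgpp2 had no UMI.

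Within arterial-like cells Sgpp2 was uneven. In the VEGF/LysM library 178 of 261 cells had no UMI, 35 had 1, 36 had 2 or 3, and 12 had 4 or more, up to 15 in a single cell. In the WT library 226 of 263 cells had none, 24 had 1 and 13 had 2 or 3. The share of cells with a UMI was 31.8% (26.2 to 37.8) in VEGF/LysM and 14.1% (10.1 to 18.9) in WT, at median depths of 2235 UMIs in VEGF/LysM and 1111 UMIs in WT. After thinning it was 20.0% (15.03 to 25.8) of 230 VEGF/LysM cells and 10.8% (6.44 to 16.8) of 157 WT cells, and these intervals overlap. Adrenocortical-like cells had shares of 4.44% in VEGF/LysM and 2.50% in WT before thinning.

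In arterial-like cells Sgpp2 was 1.77-fold (1.30 to 2.44) higher in the VEGF/LysM library than in the WT library. The interval takes each UMI as independent, yet 69 of the 188 VEGF/LysM UMIs lay in 12 cells. Without the Stab2-carrying cells the levels were 286 CPM in VEGF/LysM and 178 CPM in WT and the ratio was 1.60-fold (1.18 to 2.21). This was the 1 of 6 measured genes of the set past the log2 limit of 0.32 on the higher side in arterial-like cells, and 2 were past it on the lower side, beside 18.7% higher and 20.2% lower among 4255 measured genes. Of 15 measured arterial marker genes in the same cells, 7 were past the limit on the higher side and 2 on the lower side, with a median log2 ratio of 0.23. Ptn stood at 1351 CPM in VEGF/LysM and 918 CPM in WT and Mgp at 348 CPM in VEGF/LysM and 111 CPM in WT, while Gja4 at 373 CPM in VEGF/LysM and 393 CPM in WT and Sema3g at 630 CPM in VEGF/LysM and 609 CPM in WT were within that limit. The 12 fenestrated-type markers summed to 2973 CPM in VEGF/LysM and 4086 CPM in WT arterial-like cells, and the 4 sinusoid markers to 83.7 CPM in VEGF/LysM and 834 CPM in WT. The part of these shifts in the Sgpp2 ratio was not tested, and that of depth only by thinning. With every cell thinned to the same depth, arterial-like Sgpp2 stood at 265 CPM (203 to 341) in VEGF/LysM, from 61 UMIs. In WT it stood at 153 CPM (97.9 to 227), from 24 UMIs, and these intervals overlap. Thinning also left out the shallower cells.

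Over all endothelial cells Sgpp2 stood at 22.0 CPM (19.0 to 25.3) in VEGF/LysM and 7.88 CPM (5.99 to 10.2) in WT, a ratio of 2.79-fold (2.07 to 3.81). That ratio also holds the mix of classes in each library, and with the classes weighted equally the log2 ratio was 0.78 in place of 1.48. It was the 1 gene of 7 measured that was past the limit on the higher side over all endothelial cells, and none was past it on the lower side, beside 10.0% and 11.4% of 12280 measured genes. The other log2 ratios over all endothelial cells were 0.11 for S1pr1, 0.04 for Spns2, -0.31 for Sgpp1, -0.26 for Sgpl1, -0.13 for Plpp1 and -0.11 for Plpp3. With the classes weighted equally the signs for S1pr1, Spns2, Plpp1 and Plpp3 turned (-0.02, -0.09, 0.03 and 0.03). Sgpp1 passed the limit under a stricter cell filter (-0.36) and after thinning (-0.39), and was -0.17 with equal weights.

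**Figure D2:**
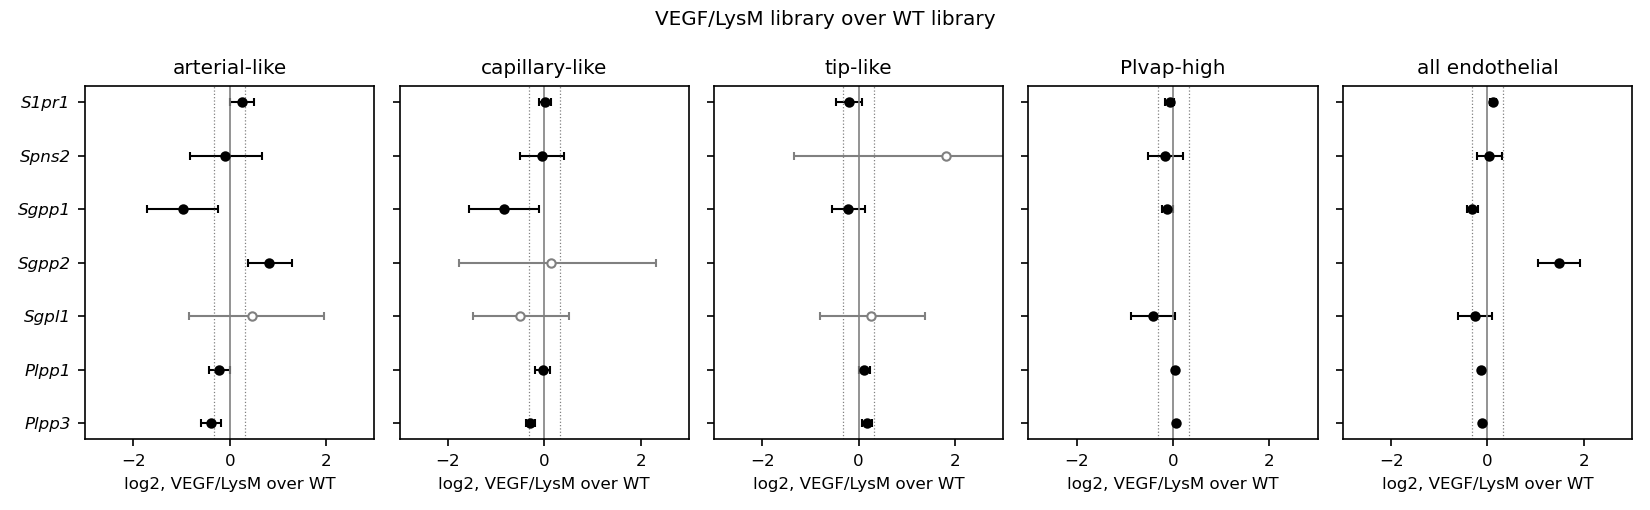
Ratio of VEGF/LysM over WT on a log2 axis for each gene, over all endothelial cells and within each vessel class, with exact 95% counting intervals. Dotted lines mark the limit of 0.32 and hollow grey points have fewer than 50 UMIs over both libraries, and the interval of Spns2 in tip-like cells runs past the axis. Sgpp2 lies to the right in arterial-like cells (1.77-fold) and over all endothelial cells (2.79-fold), and Plpp1 and Plpp3 lie close to 0 in Plvap-high cells.

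Sgpp1 (ENSMUSG00000021054, chromosome 12, 75714249 to 75735729, minus strand), the other S1P phosphatase of the endoplasmic reticulum, was highest in tip-like and Plvap-high cells, where Sgpp2 had no UMI. Tip-like cells held 219 CPM (186 to 255) in VEGF/LysM and 253 CPM (211 to 300.3) in WT, and Plvap-high cells 199 CPM (187 to 211) in VEGF/LysM and 215 CPM (203 to 228) in WT. Arterial-like cells held 51.7 CPM (35.8 to 72.3) in VEGF/LysM and 102 CPM (70.6 to 143) in WT, and capillary-like cells 19.1 CPM (13.3 to 26.6) in VEGF/LysM and 33.9 CPM (23.5 to 47.4) in WT. Tip-like and Plvap-high cells overlapped, and the arterial-like and capillary-like intervals lay below them and apart from each other. Without the Stab2-carrying cells, WT arterial-like cells held 43.0 CPM (22.9 to 73.5), which overlaps the capillary-like level. Sgpp1 was 2.82-fold (VEGF/LysM) and 2.06-fold (WT) higher in Plvap-high cells than in the other endothelial cells, and 0.10-fold in VEGF/LysM and 0.16-fold in WT capillary-like cells.

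Across the Plvap-high clusters Sgpp1 kept between 154 and 280 CPM. Its highest values were 247 CPM in VEGF/LysM and 280 CPM in WT in cluster 7, which is led by Igfbp5 and Adamtsl2, and its lowest 161 CPM in VEGF/LysM and 154 CPM in WT in cluster 8. The shares of Plvap-high cells with a UMI, 36.5% in VEGF/LysM and 22.4% in WT, came to 18.0% in VEGF/LysM and 18.8% in WT after thinning. In capillary-like cells the shares were 3.61% in VEGF/LysM and 4.00% in WT, and 1.55% in VEGF/LysM and 3.71% in WT after thinning. The part of free RNA in this low level was not tested.

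Between the libraries, Sgpp1 in Plvap-high clusters ran between -0.18 in cluster 7 and 0.07 in cluster 9 on the log2 scale, and none passed the limit. In tip-like cells the log2 ratio was -0.21 (-0.55 to 0.14). In arterial-like cells it was -0.98 (-1.71 to -0.25), from 34 UMIs in each library. The 14 WT cells of the cluster named by sinusoid markers, called Stab2-carrying here, held 21 of the WT UMIs. Without the Stab2-carrying cells the levels were 51.8 CPM in VEGF/LysM and 43.0 CPM in WT, from 34 UMIs in VEGF/LysM and 13 UMIs in WT, too few for the gene to count as measured. In capillary-like cells Sgpp1 was lower in VEGF/LysM by -0.83 (-1.55 to -0.10), from 35 UMIs in VEGF/LysM and 34 UMIs in WT. It was the 1 of 5 measured genes of the set past the limit there, and none was higher, beside 13.7% higher and 15.5% lower among 7715 genes.

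Sgpl1 (ENSMUSG00000020097, chromosome 10, 61098642 to 61147703, minus strand), the lyase that ends S1P, had few UMIs in every class. Its levels were 28.9 CPM (17.4 to 45.1) in VEGF/LysM and 21 CPM (8.44 to 43.3) in WT arterial-like cells and 30.2 CPM (18.9 to 45.8) in VEGF/LysM and 25.3 CPM (13.5 to 43.3) in WT tip-like cells. They were 12.0 CPM (7.53 to 18.2) in VEGF/LysM and 17.0 CPM (9.88 to 27.2) in WT capillary-like cells and 13.6 CPM (10.7 to 17.0) in VEGF/LysM and 18.1 CPM (14.7 to 22.1) in WT Plvap-high cells. All 4 classes overlapped in WT. In VEGF/LysM the tip-like interval lay above those of capillary-like and Plvap-high cells. Over the other endothelial cells, the tip-like level was 2.08-fold in VEGF/LysM and 1.37-fold in WT.

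Sgpl1 was the 1 of 6 measured genes past the log2 limit of 0.32 between the libraries in pooled Plvap-high cells, lower in VEGF/LysM by a log2 ratio of -0.42 with an interval (-0.87 to 0.04) that spans no difference. None was higher there, beside 8.91% higher and 11.5% lower among 11222 genes. No single Plvap-high cluster held enough UMIs for its own Sgpl1 ratio.

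Plpp3 (ENSMUSG00000028517, chromosome 4, 105157347 to 105232764, plus strand), a cell-surface phosphatase for S1P and lysophosphatidic acid, was detected in nearly all Plvap-high cells. These held 3908 CPM (3855 to 3960) in VEGF/LysM and 3746 CPM (3695 to 3799) in WT. Tip-like cells held 2520 CPM (2406 to 2638) in VEGF/LysM and 2228 CPM (2101 to 2361) in WT. Capillary-like cells held 1138 CPM (1089 to 1188) in VEGF/LysM and 1386 CPM (1314 to 1461) in WT, and arterial-like cells 717 CPM (653 to 784) in VEGF/LysM and 942 CPM (841 to 1052) in WT. This order, Plvap-high, tip-like, capillary-like, arterial-like, had separate intervals at every step in both libraries. Plpp3 was 2.85-fold (VEGF/LysM) and 2.43-fold (WT) higher in Plvap-high cells than in the other endothelial cells.

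Plpp1 (ENSMUSG00000021759, chromosome 13, 112800792 to 112867894, plus strand), its relative with the same kind of substrates, was also highest in Plvap-high cells, at 2862 CPM (2817 to 2907) in VEGF/LysM and 2796 CPM (2751 to 2841) in WT. Tip-like cells held 2013 CPM (1911 to 2119) in VEGF/LysM and 1852 CPM (1736 to 1974) in WT, and arterial-like cells 770 CPM (704 to 840) in VEGF/LysM and 894 CPM (795 to 1001) in WT. Capillary-like cells were lowest, at 526 CPM (493 to 560.3) in VEGF/LysM and 538 CPM (493 to 585) in WT. Its lowest class was thus capillary-like and that of Plpp3 arterial-like. Plpp1 was 3.13-fold (VEGF/LysM) and 2.87-fold (WT) higher in Plvap-high cells than in the other endothelial cells and 0.21-fold in capillary-like cells of both libraries. Mtrex overlaps Plpp1 on the other strand.

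**Figure D3:**
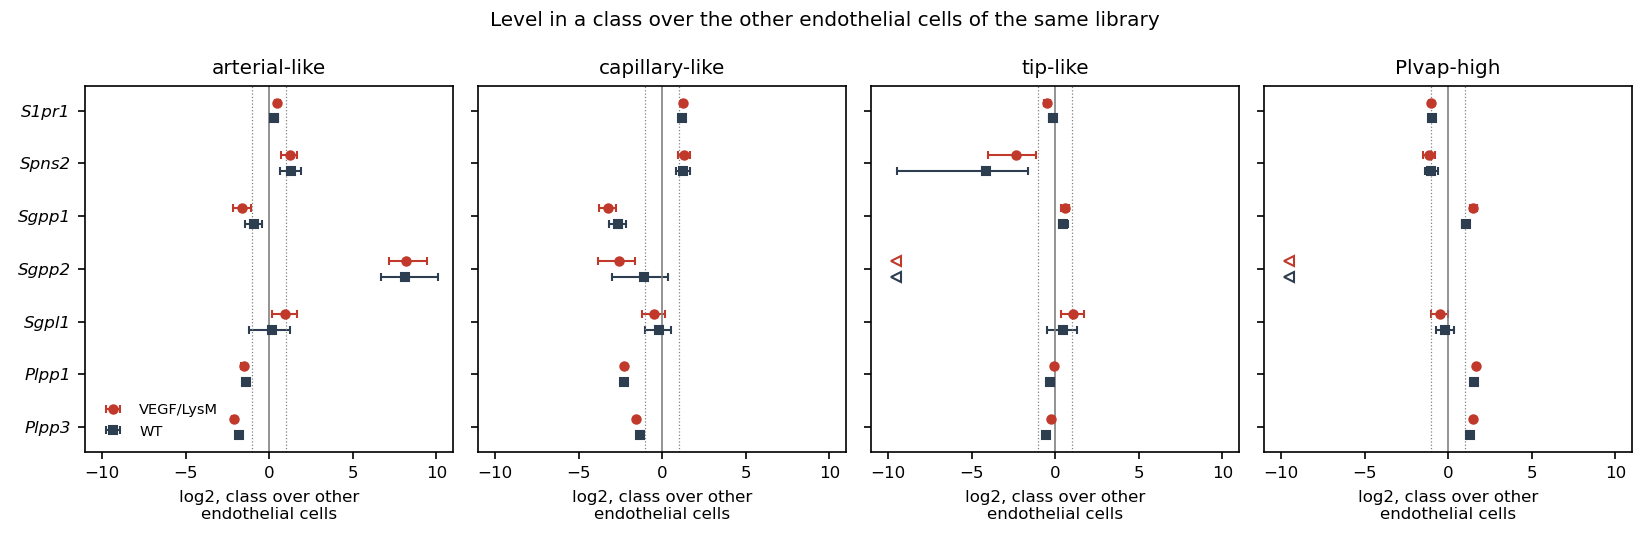
Level of each gene in a vessel class over its level in the rest of that library's endothelial cells, on a log2 axis, with VEGF/LysM above WT and exact 95% counting intervals. Open triangles to the left mark classes with no UMI of the gene. Sgpp2 in arterial-like cells reaches 295-fold (VEGF/LysM) and 284-fold (WT), and Plpp1, Plpp3 and Sgpp1 lie to the right in Plvap-high cells and to the left in capillary-like cells.

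The share of Plvap-high cells with a Plpp3 UMI was 97.3% in VEGF/LysM and 93.5% in WT, and with a Plpp1 UMI 97.8% in VEGF/LysM and 91.3% in WT. Myeloid-like cells also showed Plpp3 in 67.1% of VEGF/LysM and 75.6% of WT cells and Plpp1 in 65.9% of VEGF/LysM and 66.3% of WT cells, at median depths of 3482 UMIs in VEGF/LysM and 2582 UMIs in WT. How much free RNA adds to the levels in the other classes was not tested.

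Between the libraries both phosphatases were nearly level in Plvap-high clusters. Log2 ratios ran between -0.06 in cluster 0 and 0.19 in cluster 5 for Plpp3 and between -0.05 in cluster 0 and 0.14 in cluster 8 for Plpp1. In tip-like cells the ratio was 0.18 (0.07 to 0.29) for Plpp3 and 0.12 (0.00 to 0.24) for Plpp1. None of the 4 genes of the set measured in tip-like cells passed the limit, beside 15.3% higher and 16.6% lower among 4942 genes. In capillary-like cells Plpp3 had a ratio of -0.29 (-0.38 to -0.19), which was -0.30 in cluster 2 and 0.01 in cluster 3, and Plpp1 a ratio of -0.03. In arterial-like cells Plpp3 was lower by -0.39 (-0.60 to -0.18), and by -0.11 (-0.34 to 0.13) without the Stab2-carrying cells. Among all 12 clusters with enough UMIs, 7 had a higher and 5 a lower Plpp3 level in the VEGF/LysM library. Past the limit on the lower side were 2, and the lowest ratio, -1.24, was in a cluster outside the 4 classes. For Plpp1 the ratio was -0.22 in all arterial-like cells and 0.05 without the Stab2-carrying ones.

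**Figure D4:**
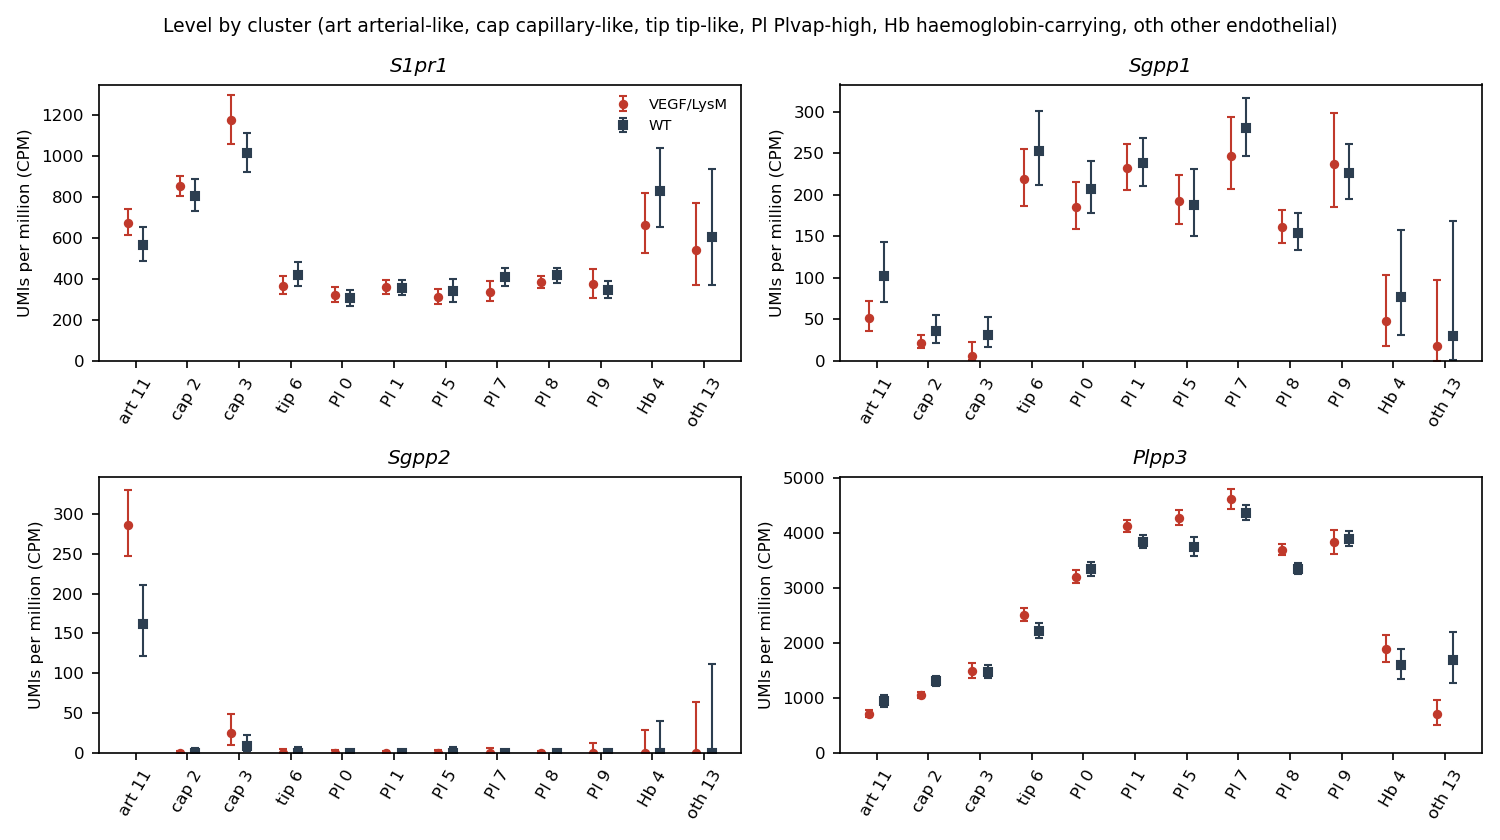
Levels in CPM of genes of the set in each endothelial cluster, VEGF/LysM left of WT, with exact 95% counting intervals. Clusters are labelled by class: art for arterial-like, cap for capillary-like, tip for tip-like, Pl for Plvap-high, Hb for haemoglobin-carrying and oth for other endothelial. Sgpp1 stays between 154 and 280 CPM over the 6 Plvap-high clusters, and Sgpp2 appears in arterial-like cluster 11 and, at a low level, in capillary-like cluster 3.

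The wider pathway list, which holds the genes of ceramide and sphingosine turnover, the other S1P and lysophosphatidic acid receptors and their signalling partners, had 57 of its 58 genes in the files. Over all endothelial cells 40 were measured, of which 1 was past the limit on the higher side in VEGF/LysM and 4 on the lower side, beside 10.0% and 11.4% of all measured genes. Their median log2 ratio was -0.03, as it was for all measured genes. These genes, all below 20 CPM, are named here after their values were seen, apart from Sphk2. Enpp2, the gene of the enzyme autotaxin that makes lysophosphatidic acid, had 8.76 CPM in VEGF/LysM and 4.35 CPM in WT, a log2 ratio of 1.01 (0.40 to 1.65). In arterial-like cells Enpp2 was 30.0-fold (VEGF/LysM) and 16.4-fold (WT) over the other endothelial cells, so this ratio also holds the mix of classes. Arrb2, the gene of a beta-arrestin, had 9.77 CPM in VEGF/LysM and 14.95 CPM in WT, a log2 ratio of -0.61 (-1.04 to -0.20). Sphk2 (-0.32), Cers6 (-0.44) and Smpd3 (-0.43) were the other genes on the lower side, and their intervals span no difference.

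Among the other S1P receptors, S1pr4 stood at 18.9 CPM in VEGF/LysM and 18.1 CPM in WT endothelial cells and S1pr2 at 6.74 CPM in VEGF/LysM and 7.75 CPM in WT. S1pr3 had 5 UMIs in VEGF/LysM and 8 UMIs in WT and S1pr5 1 UMI in each library. Mfsd2b, an S1P exporter known from red cells and platelets, had 23 UMIs in VEGF/LysM and 17 UMIs in WT, and Apom, a carrier of S1P in blood, had 0 UMIs in VEGF/LysM and 2 UMIs in WT.

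The 3 genes most like each of these in pattern were taken by Pearson correlation of log2(CPM + 10) over 8 points, the 4 classes in each of the 2 libraries, among 3859 genes. The points share libraries, depth and clustering, so the values are descriptions only. Sgpp2 was most like Cdk19 (0.996), Sox17 (0.994) and Arl15 (0.993), and Plpp3 most like Stim1 (0.998), Nr2f2 (0.993) and Tcn2 (0.984). Plpp1 was most like Plvap (0.991), Serinc3 and Ipo11, and Sgpp1 most like Flt4 (0.992), Xist and Jun. S1pr1 was most like Tmsb4x (0.985), Lcorl and Dock9, and Spns2 most like Atxn1 (0.990), Pam and Kitl. For Sgpl1 the highest were Stard5 (0.947), Eef1b2 and Rpl35a, lower than for any other member measured. Over the same points S1pr1 ran opposite to Plpp1 (-0.98) and to Sgpp1 (-0.97), while Plpp1 ran with Sgpp1 (0.94) and Plpp3 (0.87).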

How the data were processed

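The deposited values were whole-number UMI counts per gene and cell barcode, with no normalization by the authors, made with Cell Ranger on mm10. The submitters' processing notes name Cell Ranger 7.0.1 and Seurat, and the matrix header names Cell Ranger 7.0.0, per the file headers. No source used here states the annotation release, the counting of introns or the strand counted.

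The cell filter asked for 500 UMIs, 300 genes and no more than 15% mitochondrial UMIs. It dropped 14 VEGF/LysM and 142 WT barcodes. Scrublet (scanpy 1.11.5) called 2 and 1 doublets at its automatic threshold, so the highest-scoring 0.8% per 1000 barcodes were left out instead, 116 and 315. Both libraries were clustered together without integration: scaling to 10000 UMIs, 2000 variable genes without the 8 genes and their pathway, 30 principal components, 15 neighbours and Leiden resolution 1 (igraph 0.11.9). Class names and their limits were fixed with the clusters in view. The genes and lists were chosen with earlier results of these data known. The rule by which genes are named covers all 8 genes, the S1P receptors, Sphk2, Mfsd2b and Apom, pathway genes of at least 20 CPM past the fold limit, the 3 most similar genes and class markers.

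Summed UMIs gave CPM with exact Poisson intervals. Shares carry exact binomial (Clopper-Pearson) intervals and ratios exact conditional binomial intervals. Differences between libraries were called past a log2 ratio of 0.32, and those between a class and the other endothelial cells past 2-fold. A gene was measured with at least 50 UMIs over both groups compared. A level of 0 was bounded by 3 counts. Classes with at least 100 cells in each library were compared. Thinning to 1000 UMIs kept 3253 VEGF/LysM and 3582 WT endothelial cells and left out 278 and 2100 shallower ones. Of 54838 gene identifiers, 54723 matched GENCODE M21, which gave positions and overlapping genes on GRCm38. Promoters came from RefSeq. Scripts used Python 3.11.15, numpy 2.4.6, scipy 1.17.1 and pandas 2.3.3, and the counting steps were tested on simulated data.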

Additional observations from a re-analysis of the deposited data

How the results depend on the processing

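The alternatives tried were a stricter or no cell filter, no doublet removal, scaling by median of ratios, thinning to 1000 UMIs, equal mixes of classes or clusters, no minimum count, clustering at resolution 0.5 or 2 and clustering with the 8 genes and their pathway kept in. The removal of Stab2-carrying cells and the equal mix of clusters were chosen after seeing the data. Over all endothelial cells 1 gene passed the log2 limit of 0.32, and 2 did under the stricter cell filter and 3 after thinning. Within classes 5 contrasts passed, and 2 did at resolution 2, 2 with the 8 genes and their pathway kept in, 3 with no cell filter and 3 without Stab2-carrying cells. The 15 contrasts between classes with UMIs in the class ran between 11 and 16, and the 5 pathway genes between 4 and 5. Of 679 values of single genes under alternatives 582 moved by less than the counting error and 97 by more. The log2 ratio of Sgpp2 stayed between 0.68 and 0.99 in arterial-like cells and between 0.78 and 1.63 over all endothelial cells. That of Plpp3 in arterial-like cells ran between -0.78 and -0.10. Over all endothelial cells the ratios of S1pr1, Spns2, Plpp1 and Plpp3, all within the limit, changed sign with an equal mix of classes. The causes were not tested. Tip-like cells gave no value at resolution 0.5, at resolution 2 or with the genes kept in, since a library then held fewer than 100 of them. Leaving out a replicate was impossible with 1 library per group. No paired analysis was possible because each group has 1 library. Sphk1, Sgpl1 in each class and tip-like Spns2 rest on few UMIs.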

Other observations

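Other pathway genes also differed between vessel classes by at least 2-fold in both libraries. Of 35 measured, 3 were higher in arterial-like cells, beside 2.99% of all measured genes. Sgms1, which makes sphingomyelin, stood at 1392 CPM in VEGF/LysM and 1182 CPM in WT arterial-like cells, 3.44-fold (VEGF/LysM) and 3.16-fold (WT) over the other endothelial cells. The ceramidase genes Acer2 (409 CPM in VEGF/LysM and 465 CPM in WT) and Acer3 (60.9 CPM in VEGF/LysM and 84.0 CPM in WT) were the others.

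In capillary-like cells 4 were higher, beside 4.20% of all measured genes. Lpar6, a receptor for lysophosphatidic acid, stood at 508 CPM in VEGF/LysM and 582 CPM in WT, 5.45-fold (VEGF/LysM) and 5.94-fold (WT) over the other endothelial cells, and Rb1 overlaps it on the other strand. Ugcg, which makes glucosylceramide, stood at 134 CPM in VEGF/LysM and 122 CPM in WT, Ormdl3, a regulator of the first step of sphingolipid synthesis, at 69.4 CPM in VEGF/LysM and 75.9 CPM in WT, and Plpp5 at 34.4 CPM in VEGF/LysM and 31.9 CPM in WT. Lpar6, Ormdl3 and Plpp5 were the 3 that were lower in Plvap-high cells (4.23% of all measured genes), with Lpar6 at 75.7 CPM in VEGF/LysM and 80.3 CPM in WT.

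Outside the endothelium, myeloid-like cells that had passed the sort held Sgpl1 at 50.7 CPM (32.1 to 76.0) in VEGF/LysM and 56.5 CPM (31.6 to 93.2) in WT, from 23 UMIs in VEGF/LysM and 15 UMIs in WT. Adrenocortical-like cells held Sgpp1 at 124 CPM (86.6 to 171) in VEGF/LysM and 149.9 CPM (83.9 to 247) in WT, from 36 UMIs in VEGF/LysM and 15 UMIs in WT. The same cells held 124 UMIs in VEGF/LysM and 41 UMIs in WT of the endothelial gene Cdh5. How much endothelial RNA adds to these levels was not tested. Enpp2 in arterial-like cells had 55 UMIs in VEGF/LysM and 14 in WT, or 83.7 CPM in VEGF/LysM and 42.0 CPM in WT.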
